A study of Mus musculus with 7 samples.

Results

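Ptf1a, Rbpjl, Bhlha15, Nr5a2 and Gata4 encode transcription factors of the acinar cell, the enzyme-secreting cell of the exocrine pancreas. They were taken by name as 5 of the 33864 genes listed in the 3 count tables, and all 5 are listed in each table. The study profiled dissociated pancreas by single-cell RNA sequencing in 7 C57BL/6 mice, aged 2 months per the labels, with 1 library per mouse. The 2 WT mice and the 3 i4F mice drank doxycycline (1 mg/ml) over 7 days. The genotype of the latter, i4F-B, joins the transactivator rtTA in the Rosa26 locus with a cassette in Pparg that doxycycline switches on, 1 copy of each, and the cassette encodes the reprogramming factors Oct4, Klf4, Sox2 and c-Myc in all tissues, so that acinar cells are not its only target. The 2 caerulein mice were wild type and received the secretagogue caerulein at 100 µg/kg in 7 injections a day on 2 days, to cause a mild pancreatitis. The labels of the caerulein mice name no doxycycline, so caerulein and the lack of doxycycline cannot be told apart in that group. Values are counts of unique molecular identifiers (UMIs), 1 per captured mRNA molecule, and cells carry the cluster names deposited by the authors. All 5 genes are protein-coding. On build GRCm38 (GENCODE vM21) Ptf1a lies at chr2:19445663-19447501, Rbpjl at chr2:164403141-164415448 and Bhlha15 at chr5:144190286-144194441, on the plus strand, and Nr5a2 at chr1:136842571-136960448 and Gata4 at chr14:63198922-63271692, on the minus strand.

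PTF1A is a basic helix-loop-helix protein that binds DNA in the trimeric complex PTF1, together with a common E protein and RBPJL, and PTF1 drives the genes of the digestive enzymes. RBPJL is the acinar form of RBPJ, the DNA-binding protein of Notch signalling, which takes its place in the complex in the embryo. BHLHA15, also known as MIST1, is a basic helix-loop-helix protein that keeps up the secretory machinery of the mature cell. NR5A2 is an orphan nuclear receptor that acts with PTF1 on enzyme genes and is also made in liver and gut. GATA4 is a zinc finger factor of early pancreatic epithelium and of several organs of mesoderm and endoderm. Loss of PTF1A, BHLHA15 or NR5A2 is known to loosen acinar identity and to favour the change of acinar into duct-like cells.

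Acinar cells numbered 853 and 917 in WT, 594, 807 and 2130 in i4F, and 1542 and 1094 after caerulein. Most genes of the enzymes are not listed in the tables, only 12 of the 33 enzymes and secretory products and 1 of 14 acinar markers (Gp2, a granule membrane protein), so UMI totals of acinar cells leave out much of their RNA. The median acinar cell held 431 and 502 UMIs in the WT mice and 606 to 2213.5 in the other mice. Gp2 stood at 15048 and 15557 counts per 1000000 acinar UMIs (CPM) in WT, at 1289, 3039 and 8848 in i4F 1, 2 and 3, and at 899 and 696 after caerulein. i4F 3 stood apart from the other i4F mice: 2071 of its acinar cells were in the first i4F acinar cluster and 59 in the second, against 11 and 583 cells in i4F 1 and 61 and 746 in i4F 2. rtTA was present in the acinar cells of all 3 i4F mice with 118, 207 and 67 UMIs, and Pou5f1, which encodes Oct4, had 26, 142 and 0 UMIs there. The fits that compare i4F with WT are therefore given with and without i4F 3, as are some of the ratios, share differences and list medians. Pairs of libraries shared at most 39 cell barcodes.

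The sequences upstream of Ptf1a, Rbpjl and Bhlha15 are shown because these genes had the largest CPM differences between WT acinar cells and those of i4F 1 and 2. They lie at chr2:19445413-19445662, chr2:164402944-164403140 and chr5:144190036-144190285, all on the plus strand of GRCm38 (RefSeq starts), and end at the base before the gene's start in GENCODE. Capitals mark the letters CANNTG, the E-box of basic helix-loop-helix proteins, and TGGGAA, the core of the RBPJ-type element (TC box) of a PTF1 site, each searched on both strands.
Ptf1a: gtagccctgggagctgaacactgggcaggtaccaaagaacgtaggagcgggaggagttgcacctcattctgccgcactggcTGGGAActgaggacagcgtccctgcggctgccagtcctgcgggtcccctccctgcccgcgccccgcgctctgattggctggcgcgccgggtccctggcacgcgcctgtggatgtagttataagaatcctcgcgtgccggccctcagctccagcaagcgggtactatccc
Rbpjl: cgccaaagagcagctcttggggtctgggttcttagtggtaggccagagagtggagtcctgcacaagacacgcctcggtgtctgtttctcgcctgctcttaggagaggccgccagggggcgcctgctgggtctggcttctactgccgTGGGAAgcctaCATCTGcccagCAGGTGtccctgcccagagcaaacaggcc
Bhlha15: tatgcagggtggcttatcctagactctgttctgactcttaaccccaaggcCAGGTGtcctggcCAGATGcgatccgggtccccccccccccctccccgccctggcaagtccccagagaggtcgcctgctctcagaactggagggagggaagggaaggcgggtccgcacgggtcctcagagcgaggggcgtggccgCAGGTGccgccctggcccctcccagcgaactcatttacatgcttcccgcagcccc
The Rbpjl sequence held TGGGAA at base 147 and E-boxes at bases 158 and 169, the first of them 11 bases after the start of TGGGAA. Bhlha15 held 3 E-boxes at bases 51, 64 and 196 and no TGGGAA, and Ptf1a held TGGGAA at base 82 and no E-box. Among 32851 RefSeq promoters, 58.6% held an E-box and 17.7% held TGGGAA in the first 197 bases of the window, and 0.332% held both with starts 11 bases apart, a spacing chosen after the Rbpjl sequence was seen. In the first 250 bases, the length used for Ptf1a and Bhlha15, the shares were 66.2% and 21.6%. These are matches of letters and not measured binding. Nr5a2 has 2 RefSeq promoter windows, both with E-boxes and without TGGGAA, and Gata4 is named only.

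Across the annotated cell classes, Ptf1a, Rbpjl and Gata4 were concentrated in acinar cells, which held 61.8% to 98.5%, 74.9% to 92.9% and 58.3% to 96.0% of each library's UMIs of these genes. In WT, Ptf1a stood at 27.4 and 62.4 CPM in acinar cells and at 0.675 and 0.955 CPM in ductal cells. Rbpjl stood at 397 and 373 CPM in WT acinar cells, against 6.58 and 3.82 CPM in ductal cells. Gata4 was at 18.2 and 12.2 CPM in WT acinar cells, and the next class was the mesothelium, the lining of the organ, with 4 and 2 UMIs (6.27 and 3.91 CPM). Rbpjl in cells that should lack it gives a background. In B lymphocytes and macrophages it was highest in i4F 3, at 13.8 and 16.1 CPM, against 0 to 4.77 CPM in these classes of the other 6 libraries. NK and T cells held 10.9 and 8.56 CPM in WT, from 2 UMIs in each mouse, against 7.36 CPM in i4F 3. Endothelial cells held 7.63 and 8.53 CPM in WT and 14.3 CPM in i4F 3.

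**Figure D1:**
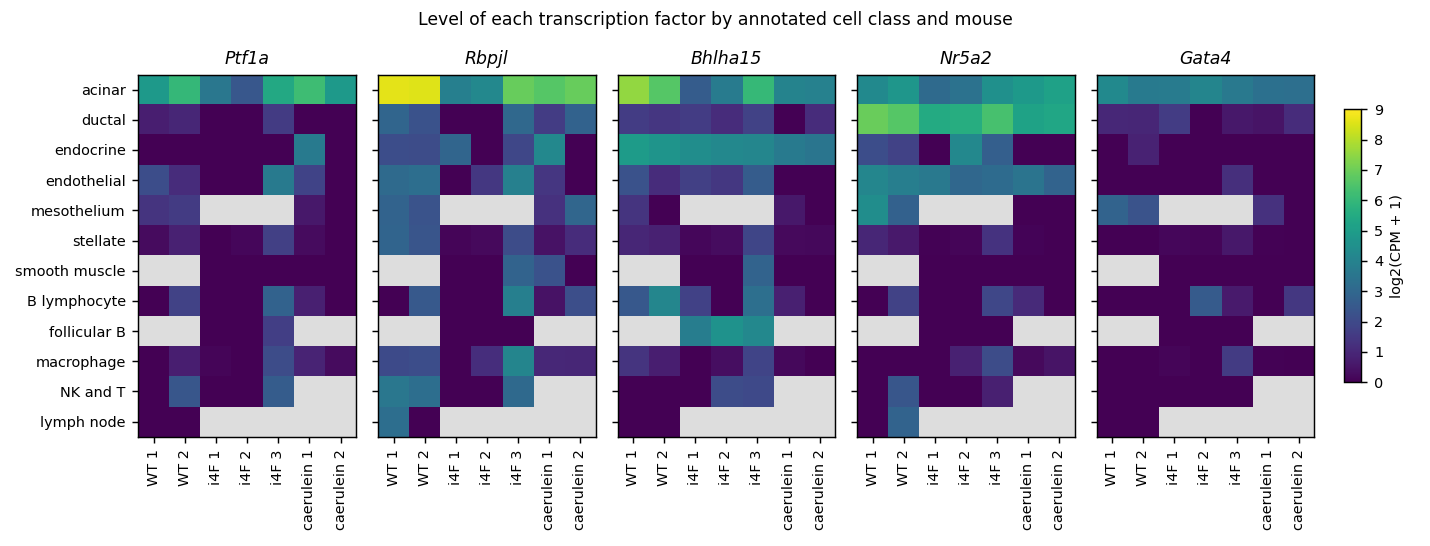
Level of each transcription factor, as log2(CPM + 1) in colour, in each annotated cell class (rows) of each mouse (columns). Grey marks a class that was not annotated in that table. The acinar row is the brightest for Ptf1a, Rbpjl and Gata4, while Nr5a2 is brightest in the ductal row and Bhlha15 is also seen in endocrine cells.

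Bhlha15 and Nr5a2 had a second site of expression. Bhlha15 stood at 184 and 96.6 CPM in WT acinar cells and at 29.4 and 24.3 CPM in WT endocrine cells, the hormone cells of the islets. Within the WT endocrine cells it lay mainly in the endocrine cluster whose name holds a single question mark, with 24 UMIs (45.6 CPM) and 28 UMIs (36.9 CPM), against 2 UMIs in each mouse in the other endocrine cluster. Rbpjl had 1 and 0 UMIs in the same cells. In i4F mice Bhlha15 was at 16.7 to 20.2 CPM in endocrine cells and at 12.9, 23.1 and 17.3 CPM in the follicular B cluster, from only 2, 3 and 8 UMIs there.

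Nr5a2 was higher in ductal than in acinar cells in 7 of 7 mice, by 1.13- to 6.65-fold on the CPM scale. In WT it stood at 121 and 97.4 CPM in ductal cells and at 18.2 and 25.7 CPM in acinar cells. The WT acinar values rest on 14 and 21 UMIs. Ductal cells held 91.1% and 85.7% of all Nr5a2 UMIs of the WT mice, 41.1% to 65.8% of those of the i4F mice, and 31.9% and 26.7% after caerulein. These shares also follow the total UMIs of each class. Ductal and acinar cells held 5930138 and 767407 UMIs in WT 1, and 4187255 and 817448 in WT 2. They held 2480678 and 5893070 in caerulein 1, and 812871 and 2421364 in caerulein 2. In every i4F mouse acinar cells also held more UMIs than ductal cells. Endothelial cells carried a low level in every mouse, 6.35 to 16.7 CPM, above that of stellate cells of the same mouse, 0 to 1.48 CPM. The endothelial level was 16.7 CPM against 18.2 CPM in acinar cells in WT 1, and 11.3 against 7.65 CPM in i4F 1. In the other mice it was below the acinar level. Mesothelium stood at 20.4 CPM in WT 1, from 13 UMIs, and at 5.86 CPM in WT 2, from 3 UMIs. The deposited ductal cells had all 10 ductal markers and Gp2 at 5.24 to 263 CPM.

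In acinar cells of i4F mice, all 5 genes had fitted CPM levels below those of WT, and none passed the test across the 7 mice. Rbpjl stood at 397 and 373 CPM in the WT mice, and at 13.6, 17.2 and 119 CPM in i4F 1, 2 and 3. Bhlha15 stood at 184 and 96.6 CPM in WT and at 5.10, 12.3 and 64.4 CPM in i4F. For both genes every i4F mouse was below every WT mouse, and i4F 3 lay nearest to WT. The share of all genes that separate in this way is not given.

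Ptf1a stood at 27.4 and 62.4 CPM in WT and at 10.8, 4.47 and 42.3 CPM in i4F, so the groups overlapped through i4F 3. Nr5a2 was at 18.2 and 25.7 CPM in WT and at 7.65, 9.40 and 22.2 CPM in i4F, with the same overlap. Gata4 was at 18.2 and 12.2 CPM in WT and at 12.5, 16.1 and 11.4 CPM in i4F, and the ranges overlapped in all i4F mice but the third.

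By edgeR's quasi-likelihood test on UMI sums per mouse, adjusted by Benjamini-Hochberg over 11134 genes, Rbpjl had a log2 fold change of -2.79 ± 1.00 (SE, adjusted p = 0.150) and Bhlha15 of -2.22 ± 1.02 (adjusted p = 0.216). The values were -1.14 ± 1.04 for Ptf1a, -0.77 ± 0.67 for Nr5a2 and -0.34 ± 0.36 for Gata4, with adjusted p of 0.504, 0.486 and 0.565. Thus edgeR called 0 of 5, where 0.0808% of all genes were called. Rbpjl was the only one of 5 with an unadjusted p under 0.05, a threshold for which the share of all genes is not given here or below. DESeq2 called 1, Rbpjl, with an adjusted p of 0.0340, where it called 9.64% of all genes. The p-values measure the spread between mice, and in these sums fewer expressing cells and less RNA per cell cannot be told apart.

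Without i4F 1 or without i4F 2, edgeR called 0 of the 5, where 0% of all genes were called. i4F 3 had been set apart by its acinar clusters, which were drawn from expression, and it lay nearest to WT for Rbpjl and Bhlha15. The p-values without it hold only given that choice. Without i4F 3, edgeR called 4 of 5 as lower, where 15.4% of all genes were called lower and 17.3% higher. Rbpjl fell by 5.01 ± 0.26 on the log2 scale (adjusted p = 7.56e-06) and Bhlha15 fell by 4.35 ± 0.41 (adjusted p = 7.81e-05). Ptf1a fell by 2.96 ± 0.64 (adjusted p = 0.00652) and Nr5a2 fell by 1.73 ± 0.34 (adjusted p = 0.00362). Gata4 was at -0.45 ± 0.37 (adjusted p = 0.371). Within i4F 3 itself, Rbpjl stood at 127 CPM (95% Poisson interval 114 to 141) in the first acinar cluster and 42.8 CPM (22.1 to 74.8) in the second. Bhlha15 stood at 70.2 CPM (60.4 to 81.1) and 10.7 CPM (2.21 to 31.3), and Ptf1a at 46.0 CPM (38.2 to 55.0) and 7.14 CPM (0.865 to 25.8). The intervals overlapped for Nr5a2, at 23.0 CPM (17.6 to 29.6) and 14.3 CPM (3.89 to 36.6), and for Gata4, at 10.7 CPM (7.14 to 15.5) and 17.9 CPM (5.80 to 41.7). These intervals cover counting error only, and the clusters were themselves drawn from expression, so the contrast is a description.

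**Figure D2:**
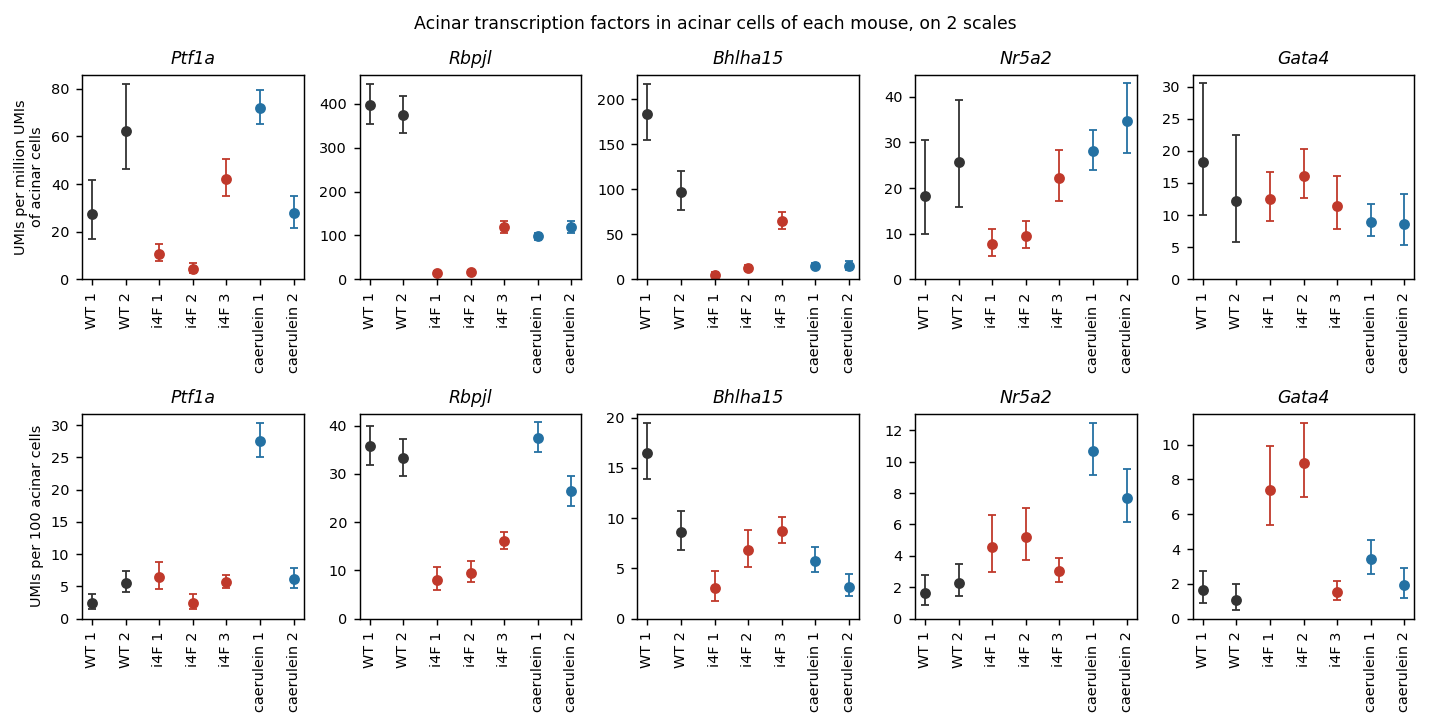
Level of each transcription factor in acinar cells of each mouse, as CPM (top) and as UMIs per 100 acinar cells (bottom), with exact 95% Poisson intervals as bars. Rbpjl and Bhlha15 are highest in WT on the CPM scale, while Ptf1a reaches 27.6 UMIs per 100 cells in caerulein 1.

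After caerulein, Rbpjl, Bhlha15 and Gata4 were below WT in acinar cells in both mice, and Ptf1a and Nr5a2 were not below both WT mice. Rbpjl stood at 98.3 and 119 CPM after caerulein, Bhlha15 at 15.1 and 14.5 CPM, and Gata4 at 8.99 and 8.67 CPM. None of these 3 genes overlapped with WT, but the share of all genes that separate in this way is not given. Ptf1a stood at 72.1 and 27.7 CPM, around the WT values, and Nr5a2 at 28.0 and 34.7 CPM, above both WT mice. In WT acinar cells Nr5a2 had only 14 and 21 UMIs and Gata4 14 and 10, so their order against WT rests on few molecules.

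Across the 7 mice the log2 fold changes of caerulein over WT were -3.82 ± 1.24 for Bhlha15 (adjusted p = 0.134), -2.42 ± 1.13 for Rbpjl (adjusted p = 0.255) and -1.35 ± 0.39 for Gata4 (adjusted p = 0.107) by edgeR. They were -0.40 ± 1.12 for Ptf1a and -0.09 ± 0.71 for Nr5a2. edgeR called 0 of 5, where 0.0359% of all genes were called, and 2 of 5, Bhlha15 and Gata4, had an unadjusted p under 0.05. DESeq2 called 1, Bhlha15, with an adjusted p of 0.0106, where it called 7.49% of all genes. With the WT and caerulein mice fitted alone, edgeR called 3 of 5 as lower, where 13.9% of all genes were called lower and 9.99% higher. Rbpjl fell by 2.47 ± 0.20 (adjusted p = 0.000395), Bhlha15 fell by 3.86 ± 0.34 (adjusted p = 0.000547) and Gata4 fell by 1.39 ± 0.37 (adjusted p = 0.0362). Ptf1a and Nr5a2 were at -0.43 ± 0.56 and -0.14 ± 0.30 in that fit, with adjusted p of 0.601 and 0.756.

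Both treatments are compared with the same 2 WT mice, so caerulein and i4F were also set against each other. These 2 groups also differ in genotype, doxycycline and the series of their library names, which cannot be told apart here. With the series as a term, edgeR called 0 of 5, where 0% of all genes were called. Across the 7 mice edgeR called 0 of 5, where 0.126% of all genes were called, and DESeq2 called 0, where it called 4.5%. Gata4 alone had an unadjusted p under 0.05, with a log2 fold change of caerulein over i4F of -1.02 ± 0.33 (adjusted p = 0.156). Without i4F 1 or without i4F 2, edgeR called 0 of the 5, where 0.00956% and 0% of all genes were called. Without i4F 3, edgeR called 3 of 5 as higher after caerulein, where 9.44% of all genes were called higher and 13% lower. Ptf1a rose by 2.57 ± 0.57 (adjusted p = 0.0110), Rbpjl rose by 2.58 ± 0.24 (adjusted p = 0.000125) and Nr5a2 rose by 1.63 ± 0.28 (adjusted p = 0.00304). Bhlha15 was at 0.53 ± 0.41, turned in sign from the -1.59 ± 1.09 of all 7 mice, and Gata4 at -0.90 ± 0.30 (adjusted p = 0.0579).

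**Figure D3:**
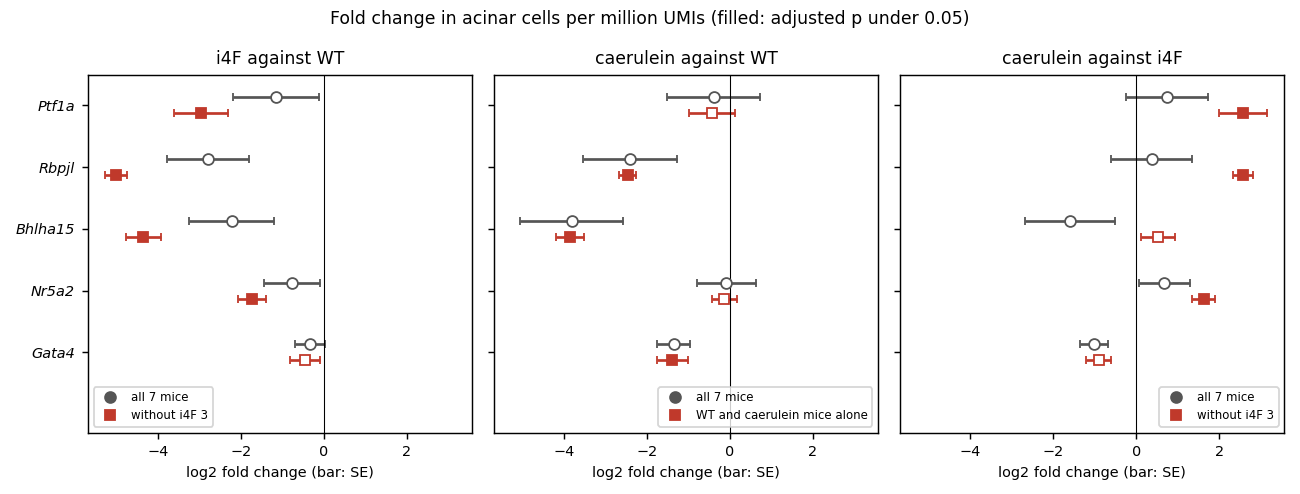
Log2 fold changes in acinar cells with their standard errors from edgeR, for the fit of all 7 mice (circles) and for the fit without i4F 3 or with WT and caerulein alone (squares). Filled symbols have an adjusted p under 0.05, and no circle is filled.

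The choice of denominator mattered, since acinar cells outside WT held more listed UMIs each. Scaled to cells instead of UMIs, an alternative chosen after the data were seen, the median of all genes was 2.74 higher in i4F and 2.44 higher after caerulein on the log2 scale. Rbpjl gave 35.8 and 33.3 UMIs per 100 acinar cells in WT, 8.08, 9.54 and 16.1 in i4F, and 37.5 and 26.4 after caerulein. Bhlha15 gave 16.5 and 8.62 in WT, 3.03, 6.82 and 8.73 in i4F, and 5.77 and 3.20 after caerulein. Per cell, every i4F mouse was below both WT mice for Rbpjl, and the caerulein mice overlapped with WT. For how many of all genes the i4F mice lie so is not given.

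For Ptf1a, Nr5a2 and Gata4 the fitted log2 fold changes were above 0 on that scale, which moved the median of all genes up. In i4F they were 0.28, 1.10 and 2.11, below the median of all genes, and after caerulein 2.07, 2.22 and 0.97, below its median as well. Ptf1a gave 2.46 and 5.56 UMIs per 100 cells in WT, 6.40, 2.48 and 5.73 in i4F, and 27.6 and 6.12 after caerulein. Nr5a2 gave 1.64 and 2.29 in WT, 4.55, 5.20 and 3.00 in i4F, and 10.7 and 7.68 after caerulein. Gata4 gave 1.64 and 1.09 in WT, 7.41, 8.92 and 1.55 in i4F, and 3.44 and 1.92 after caerulein. Per cell and with all 7 mice, edgeR called 0 of 5 in either comparison with WT, none at an unadjusted p under 0.05, where 38.7% of all genes were called in i4F and 4.89% after caerulein. Per cell without i4F 3, Rbpjl fell by 1.97 ± 0.48 (adjusted p = 5.43e-05) and Bhlha15 fell by 1.33 ± 0.47 (adjusted p = 0.00562) in i4F. That fit called 0.818% of all genes lower and 93.5% higher, with a median of 3.23. Nr5a2 at 1.31 ± 0.52 (adjusted p = 0.0137) and Gata4 at 2.58 ± 0.54 (adjusted p = 2.45e-06) were called higher, both with less than the median gene.

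A ratio between genes of the same cells does not depend on that scaling, and Rbpjl was taken as the denominator after its values were seen to be lower in i4F. The ratios are therefore a description, with no test. A higher ratio in i4F or after caerulein in part restates the lower Rbpjl level. How many of all genes have a higher ratio to Rbpjl is not given. Per 100 Rbpjl UMIs, acinar cells held 4.59 and 6.89 Nr5a2 UMIs in WT, 56.3, 54.5 and 18.7 in i4F, and 28.5 and 29.1 after caerulein. They held 4.59 and 3.28 Gata4 UMIs in WT, 91.7, 93.5 and 9.62 in i4F, and 9.15 and 7.27 after caerulein. Ptf1a stood at 6.89 and 16.7 in WT, at 79.2, 26.0 and 35.6 in i4F, and at 73.4 and 23.2 after caerulein. For these 3 genes every treated mouse was above both WT mice, which would also hold for a gene with the same CPM in all mice.

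Bhlha15 went otherwise, with 46.2 and 25.9 UMIs per 100 Rbpjl UMIs in WT, 37.5, 71.4 and 54.2 in i4F, and 15.4 and 12.1 after caerulein. The i4F and WT mice overlapped, and both caerulein mice lay below the others. In log2, i4F exceeded WT by 3.49 for Gata4, 2.78 for Nr5a2 and 1.96 for Ptf1a. Caerulein differed from WT by 2.36 for Nr5a2, 1.94 for Ptf1a, 1.07 for Gata4 and -1.34 for Bhlha15. Without i4F 3, i4F exceeded WT by 4.58 for Gata4, 3.30 for Nr5a2 and 2.08 for Ptf1a.

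**Figure D4:**
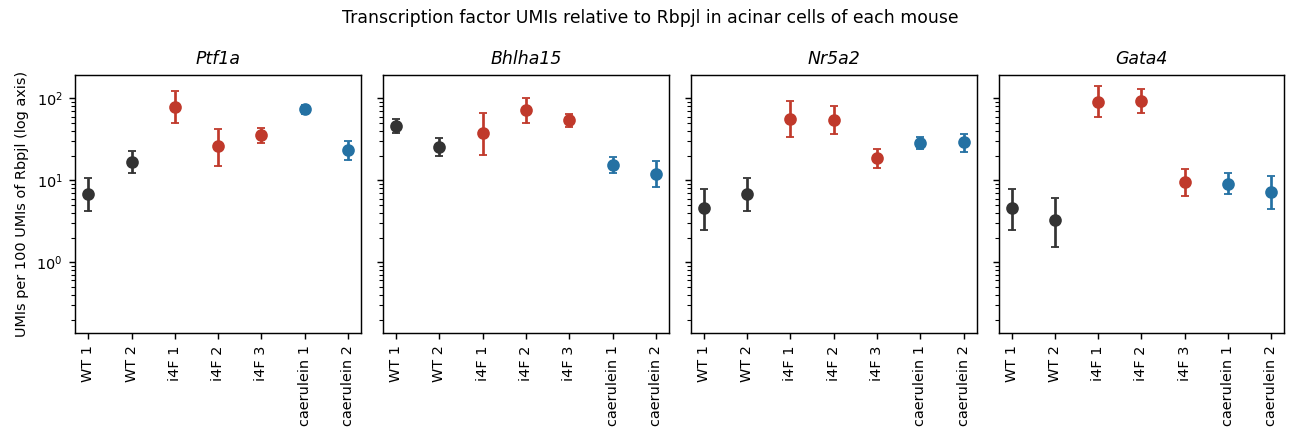
UMIs of Ptf1a, Bhlha15, Nr5a2 and Gata4 per 100 Rbpjl UMIs in acinar cells of each mouse, on a log axis with 95% intervals. Nr5a2 and Gata4 are lowest in the 2 WT mice, while Bhlha15 is lowest in the 2 caerulein mice.

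The share of acinar cells with a UMI was compared after each cell was thinned to 1000 UMIs, which left 152 and 209 WT cells, 382, 572 and 724 i4F cells and 1139 and 652 caerulein cells. Rbpjl was seen in 32.9% and 24.4% of WT cells, in 2.09%, 2.80% and 10.5% of i4F cells, and in 10.4% and 12.7% of caerulein cells. Before thinning the shares were 22.2% and 23.6%, 6.90%, 7.56% and 12.0%, and 25.3% and 19.3%. Thinned B lymphocytes, which should lack Rbpjl, showed it in 0% to 1.86% of cells. Bhlha15 was seen in 21.7% and 11% of thinned WT cells, in 1.05%, 0.70% and 7.04% of i4F cells, and in 1.76% and 1.07% after caerulein. The mean share of Rbpjl was 23.5 points lower in i4F than in WT (5.13% ± 4.66, SD, n = 3, against 28.6% ± 6.01, n = 2, exact two-sided permutation p = 0.2, the smallest that 3 against 2 mice can give) and 17.1 points lower after caerulein (11.5% ± 1.68, n = 2, exact permutation p = 0.33, the smallest for 2 against 2). For Bhlha15 the differences were -13.4 and -14.9 points, with the same p. Without i4F 3 the i4F differences were -26.2 points for Rbpjl and -15.5 points for Bhlha15.

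The other 3 genes were seen in few thinned cells, and not all in the same direction. Nr5a2 was seen in 0.66% and 0.96% of WT cells, in 1.83%, 0.87% and 1.24% of i4F cells, and in 1.58% and 2.76% after caerulein. Its mean share was 0.51 points higher in i4F, where the mice overlapped with WT (exact permutation p = 0.4), and 1.36 points higher after caerulein, where they did not (exact permutation p = 0.33). Thinned to 300 UMIs, which kept 611 and 761 WT cells, both differences turned, to -0.25 points each, and the caerulein and WT mice overlapped. Ptf1a was seen in 2.63% and 5.26% of WT cells, in 1.05%, 0.52% and 3.59% of i4F cells, and in 6.23% and 2.76% after caerulein, a difference of -2.23 points in i4F and of 0.55 points after caerulein, both with overlap. The first turned to 0.0297 points without thinning and the second to -0.67 points at 300 UMIs. Gata4 was 1.53 points lower in i4F, with overlap, and 1.63 points lower after caerulein, without, but 2.66 and 1.17 points higher without thinning. No direction is therefore read from the shares of these 3 genes. Thinned B lymphocytes showed Nr5a2 in 0% to 0.57% and Ptf1a in 0% to 0.29% of cells. Gata4 was seen in 1 of 32 such cells of i4F 2 and in 0 of those of the other 6 mice. Adjusted over 10 shares, every p was at least 0.444.

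At least 1 of the 5 genes was seen in 71 of 152 and 80 of 209 thinned WT cells. In i4F this held for 28 of 382, 30 of 572 and 155 of 724 cells, and after caerulein for 215 of 1139 and 122 of 652. Cells with 2 or more of them made up 11.8% and 4.31% in WT, 0.26%, 0.17% and 2.35% in i4F, and 1.93% and 1.38% after caerulein. Before thinning, at median depths of 431 and 502 UMIs per acinar cell in WT, 606 to 2020 in i4F and 2214 and 1323 after caerulein, the caerulein mice overlapped with WT in both measures. At least 1 gene was then seen in 284 of 853 and 291 of 917 WT cells, in 105 of 594, 159 of 807 and 484 of 2130 i4F cells, and in 621 of 1542 and 305 of 1094 caerulein cells. The unthinned share with 2 or more was 7.27% and 6.22% in WT, 3.70%, 4.46% and 5.21% in i4F, and 14.3% and 7.04% after caerulein.

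In ductal cells Nr5a2 was the only gene of the 5 with a sizeable level, and it was lower in every treated mouse than in WT. It stood at 121 and 97.4 CPM in WT, at 43.9, 48.1 and 82.3 CPM in i4F, and at 35.1 and 39.4 CPM after caerulein. The share of all genes that lie below WT in every treated mouse is not given. Across the 7 mice edgeR gave a log2 fold change of -1.39 ± 0.33 for caerulein over WT (adjusted p = 0.0590) and of -0.73 ± 0.29 for i4F over WT (adjusted p = 0.260). Only Nr5a2 and Rbpjl passed the filter on low counts there. Of these 2, edgeR called 0 in either comparison, where 3.53% and 0.00861% of all genes were called, and Nr5a2 had an unadjusted p under 0.05 in both. Between caerulein and i4F it called 0 as well, where 0.387% of all genes were called, and neither gene had an unadjusted p under 0.05. DESeq2 called Nr5a2 after caerulein with an adjusted p of 0.0260, where it called 8.23% of all genes. It called 0 in i4F and 0 between caerulein and i4F, where it called 2.67% and 1.94%.

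With WT and caerulein alone, Nr5a2 fell by 1.38 ± 0.21 in ductal cells (adjusted p = 0.00591), where 13.8% of genes were called lower. In i4F over WT, without i4F 1 or without i4F 2, edgeR called 0 of the genes, where 0.00863% and 0.00865% of all genes were called. Without i4F 3, Nr5a2 fell by 1.05 ± 0.20 in i4F (adjusted p = 0.00780), where 12.8% of genes were called lower. Rbpjl was called lower in that fit too (adjusted p = 0.0298), but its counts give no reading of ductal cells. It had 39 and 16 UMIs in WT, 0 in i4F 1 and 2 and 5 in each caerulein mouse. Its 6.58 and 3.82 CPM in WT ductal cells were close to the level in WT cells that should lack it, at 7.63 and 8.53 CPM in endothelial and 6.56 and 4.16 CPM in stellate cells. In i4F 1 and 2 those classes held 0 to 1.74 CPM, and ductal cells of i4F 3 stood at 7.22 CPM. Per cell, Nr5a2 fell by 2.02 ± 0.68 after caerulein (adjusted p = 0.0282) and by 1.63 ± 0.58 in i4F (adjusted p = 0.0440), while the medians of all genes were -0.70 and -0.89 and 9.79% and 11.4% of genes were called lower. The fold of ductal over acinar Nr5a2 was 6.65 and 3.79 in WT, 5.74, 5.12 and 3.71 in i4F, and 1.25 and 1.13 after caerulein. That fold was 2.07 lower in log2 after caerulein than in WT (exact permutation p = 0.33, the smallest possible) and 2.00 lower than in i4F (exact permutation p = 0.2, the smallest possible). The acinar side of the WT folds rests on 14 and 21 UMIs.

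**Figure D5:**
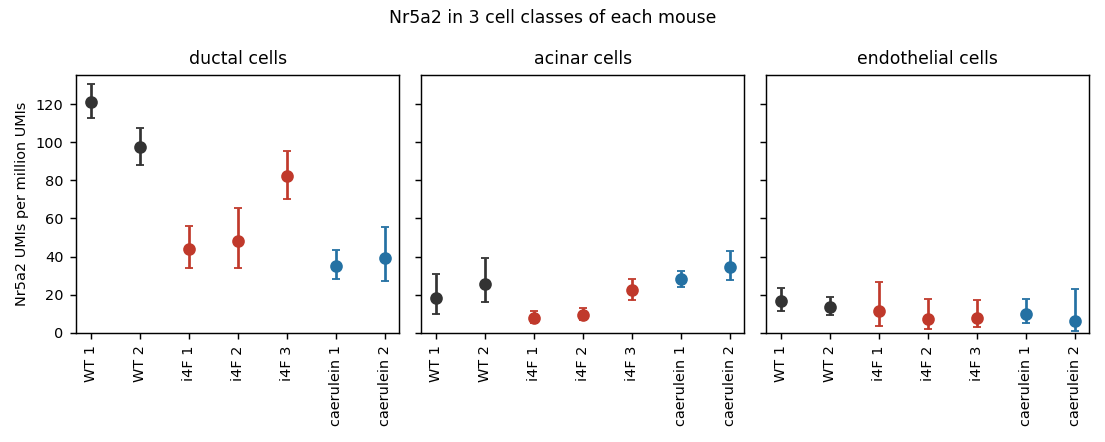
Nr5a2 level in CPM in ductal, acinar and endothelial cells of each mouse, with exact 95% Poisson intervals. The ductal level is 121 and 97.4 CPM in WT and 35.1 and 39.4 CPM after caerulein, near the acinar level of the caerulein mice.

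Markers of other cells moved with these groups in the cells named acinar. The 10 ductal markers summed to 8844 and 6780 CPM in WT acinar cells, to 23791, 14184 and 7743 CPM in i4F, and to 55589 and 60624 CPM after caerulein. The 7 macrophage markers summed to 36.5 and 91.7 CPM in WT, to 940, 571 and 225 CPM in i4F, and to 2369 and 1328 CPM after caerulein. In WT, 9 of the 10 ductal and 5 and 6 of the 7 macrophage markers had a UMI in these cells, and in the other mice all did. Their part in the levels of the 5 genes was not tested. With acinar and ductal cells summed, edgeR called 0 of 5 in all 3 comparisons, where 0.0368% (i4F over WT), 9.22% (caerulein over WT) and 0.00736% (caerulein over i4F) of all genes were called. Unadjusted p under 0.05 were found for 2, 2 and 0 of the 5, and DESeq2 called 1, 2 and 0, where it called 15.7%, 19.5% and 4.18% of all genes.

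Genes tied to these factors were followed in acinar cells in 5 lists. The lists were chosen with earlier results of these data known. Calls without i4F 3 hold only given that this mouse, set apart by its expression, is left out. With all 7 mice, edgeR called 0 of the 50 list genes tested in any comparison, with 13, 21 and 16 at an unadjusted p under 0.05 in i4F over WT, caerulein over WT and caerulein over i4F, and DESeq2 called 6 of 46, 17 of 48 and 7 of 49. Over all genes edgeR called 0.0808%, 0.0359% and 0.126%, and DESeq2 9.64%, 7.49% and 4.5%. These shares are at the adjusted threshold and are no reference for the unadjusted counts. In i4F over WT the list medians were -1.61 for targets of BHLHA15, -2.06 for enzymes, -0.87 for other exocrine factors, -0.37 for PTF1A partners and 0.54 for ductal and progenitor factors, where that of all genes was 0.14. Without i4F 3, where 15.4% of all genes were called lower and 17.3% higher, 8 of 12 listed targets of BHLHA15 fell in i4F and 0 rose, with a median log2 fold change of -3.15 where that of all genes was 0.13. Rab26, a small GTPase of secretory granules, fell by 4.87 and Atp2c2, a secretory pathway calcium pump, fell by 4.55. Of the 12 listed enzymes and secretory products 11 fell, with a median of -3.86, among them Ctrc (chymotrypsin C), which fell by 5.57, and Prss1 (trypsinogen), which fell by 4.77. Of 12 tested other exocrine transcription factors 9 fell, with a median of -1.44, led by Nr0b2 (fell by 3.62) and Foxa3 (fell by 2.45). Among 4 partners of PTF1A (median -0.41), Tcf4 alone fell, by 0.94, and Rbpj was not called. Of 10 ductal and progenitor factors (median 0.29) Klf5, Ehf and Klf4 rose by 4.08, 3.34 and 0.96, and Pdx1 and Klf6 fell by 2.05 and 0.79. Klf4 is itself one of the induced transgenes.

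With WT and caerulein alone, where 13.9% of all genes were called lower and 9.99% higher, 9 of 12 BHLHA15 targets fell and 0 rose (median -3.04, against 0.05 for all genes), led by Atp2c2, which fell by 6.14, and Gjb1, a gap junction protein, which fell by 4.28. Of 12 enzymes 10 fell (median -4.16), with the amylase genes Amy2a5 and Amy2b down by 6.30 and 6.14 in log2, although reads of the near-identical amylase copies can be split between them. Of 12 other exocrine factors 4 fell, of 9 ductal and progenitor factors Klf5 and Sox4 rose by 4.40 and 3.50, and 0 of 4 PTF1A partners were called.

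The calls on these lists depended on the denominator. Scaled per cell without i4F 3, where 93.5% of all genes were called higher in i4F and 0.818% lower, 5 of 12 BHLHA15 targets were called higher and 2 lower, 2 of 12 enzymes higher and 4 lower, and 9 of 12 other exocrine factors higher and 0 lower, against 0 higher and 9 lower on the CPM scale. All 4 PTF1A partners and all 9 tested ductal and progenitor factors were called higher. The medians were -0.11, -0.84, 1.60, 2.62 and 3.995 in that order, so that only the last lay above the 3.23 of all genes. Per cell with all 7 mice, 0 of 12 targets, 0 of 12 enzymes and 0 of 12 other exocrine factors were called after caerulein, where 0.132% of all genes were called lower and 4.76% higher. Their medians were -0.66, -1.77 and 1.61, against 2.44 for all genes. In i4F the same fit called 0 targets, 0 enzymes and 1 other exocrine factor, the last as higher, where 38.7% of all genes were called higher. Of the 9 ductal and progenitor factors it called 5 higher in i4F and 2 after caerulein, and of the 4 PTF1A partners 0 in either.

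The genes most like each factor in level were sought over 83 sums of cluster and mouse, across 15309 genes, by Pearson's r of log2(CPM + 10). Ptf1a was most like Cabp2 (r = 0.895), Gm10334 (0.881) and Cckar, the receptor that caerulein binds (0.871). Rbpjl was most like Cabp2 (0.918), 1810010D01Rik (0.918) and 1810053B23Rik (0.914). Bhlha15 was most like Edem2, of the degradation of misfolded proteins (0.884), Gnmt (0.864) and Dusp26 (0.847). Nr5a2 was most like the desmosomal cadherin Dsg2 (0.885), Kcnq1 (0.881) and Usp43 (0.875), and Gata4 was most like Cyp3a13 (0.856), Gm13010 (0.856) and Slc7a3 (0.840). Among the factors themselves r was 0.869 for Ptf1a with Rbpjl and 0.257 for Bhlha15 with Nr5a2. The sums share libraries and depth, so these are descriptions.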

How the data were processed

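Pancreas tissue was dissociated enzymatically and cells were captured with the 10x Chromium 3′ v3 kit. The authors aligned and counted reads with Cell Ranger on GRCm38 (mm10) and deposited 3 tables of whole-number UMI counts per gene and cell with their cluster names, which were made separately per condition. SoupX removal of free RNA is described for WT and i4F; whether the deposited counts precede it is not given in the sources used here, nor how doublets were treated, and no further cells were removed here. Counts were summed per mouse and cell class, with 594 to 2130 acinar cells and 767407 to 5893070 acinar UMIs per mouse. Library totals ran from 15469018 to 64784216 UMIs. edgeR 4.0.16 (R 4.3.3; filterByExpr, TMM, quasi-likelihood test, Benjamini-Hochberg threshold 0.05) was fitted to all 7 mice with group as the term, and DESeq2 1.42.0 was an alternative. The step was tested on simulated counts. Shares and the ductal over acinar fold of Nr5a2 were tested by two-sided exact permutation over mice (scipy 1.17.1), with 95% Poisson intervals. Named list genes are the most changed among those called, up to 4 per list and direction. The 5 genes and the 5 lists were chosen with earlier results of these data known. WT 1 and the i4F libraries carry names of one series and WT 2 and caerulein of another; only WT spans both, and what the series means is not stated. Reads of Ptf1a and Rbpjl may overlap those of Ptf1aos and Matn4 on the other strand. Promoter windows came from RefSeq (GRCm38.p6).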

Additional observations from a re-analysis of the deposited data

Results flagged for a closer look

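Nr5a2 lay on opposite sides of WT in 2 cell classes after caerulein. On the CPM scale the log2 of mean caerulein over mean WT was 0.51 in acinar cells, where both caerulein mice were above both WT mice, and -1.55 in ductal cells, where both were below. The WT acinar values rest on 14 and 21 UMIs, and the share of all genes that separate so in either class is not given. The difference between the classes, taken within each mouse, had an exact permutation p of 0.33, the smallest that 2 against 2 mice can give. With TMM scaling the acinar value was -0.09. Groups of 2 or 3 mice were too small for a test of outlying samples.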

How the results depend on the processing

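Members called in acinar cells numbered 0 in each comparison as reported. Beside each count below stands the share of all genes called in the same fit. Only i4F 3 carries the number 3, so the replicate block over all mice gives it a term of its own. That setting is therefore not independent of leaving i4F 3 out. For i4F over WT they were 1 with DESeq2 (9.64%), 2 with no filter (8.34%), 4 with the replicate block (29.6%), 4 without i4F 3 (32.7%, per cell 4, 94.3%) and 4 with the second i4F acinar cluster only (27.5%). Per cell without i4F 3, Rbpjl and Bhlha15 were called lower and Nr5a2 and Gata4 higher. For caerulein over WT they were 1 with DESeq2 (7.49%), 2 with no filter (6.26%), 2 with the replicate block (16.7%), 3 with the 2 groups alone (23.9%), 2 with the block in those groups (17.9%) and 3 with crossed numbers (31.6%). For caerulein over i4F they were 1 with no filter (5.78%), 3 with the block (19.2%), 3 without i4F 3 (22.5%, per cell 3, 31.1%), 1 with the first (3.23%) and 3 with the second i4F cluster only (18%). In ductal cells they were, for i4F over WT, 1 with the block (19.2%), 2 without i4F 3 (26.5%, 1 of them Rbpjl, whose WT level was close to that of WT cells that should lack it), 1 per cell (13.7%) and 1 per cell without i4F 3 (15.8%). For caerulein over WT there was 1 with DESeq2 (8.23%), no filter (10.5%), the block (23.5%), the 2 groups alone (28.5%), the block in them (16%), crossed numbers (41.5%) and per cell (13.4%). With acinar and ductal cells summed they were, for i4F over WT, 1 with DESeq2 (15.7%), 2 without TMM (28.9%), 3 with no filter (15.1%), 3 with the block (44.7%) and 3 without i4F 3 (50.1%). For caerulein over WT they were 2 with DESeq2 (19.5%), 3 with no filter (15.1%), 4 with the block (39%), 4 with the 2 groups alone (46.1%), 3 with the block in them (29.2%) and 4 with crossed numbers (56.1%). For caerulein over i4F they were 2 with no filter (5.32%), 1 with the block (7.72%) and 3 without i4F 3 (13.3%). Left-out mice gave 0 to 4 in acinar cells, 0 to 2 in ductal cells and 0 to 3 in the sum. The cause was not tested.

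Signs of log2 fold changes turned in acinar cells as follows, the per-cell ones under a scaling that moved the median of all genes up by 2.74 in i4F and 2.44 after caerulein. For i4F over WT, per cell: Ptf1a 0.28, Nr5a2 1.10 and Gata4 2.11, and without i4F 3 0.11, 1.31 and 2.58. In all non-immune cells Ptf1a was 1.13, Bhlha15 0.0518 and Gata4 1.32, and in all cells Ptf1a 0.90 and Gata4 1.08. For caerulein over WT, per cell: Ptf1a 2.07, Nr5a2 2.22 and Gata4 0.97. In non-immune cells Ptf1a was 1.89, Rbpjl 0.15 and Gata4 0.79, and in all cells Ptf1a 1.44 and Gata4 0.39. Without TMM Ptf1a was 0.16 and Nr5a2 0.51, with at least 500 genes per cell 0.0721 and 0.46, and with no filter Nr5a2 0.11. Leaving out 1 mouse gave Ptf1a -1.34 to 0.38 and Nr5a2 -0.28 to 0.24. For caerulein over i4F, Bhlha15 was 0.51 with the block and 0.60 with the second cluster. Ptf1a was -0.48 with the library series as a term and -0.21 with the first cluster. Rbpjl was -0.10 with the first cluster. Nr5a2 was -0.29 in all cells, -0.21 in non-immune cells and -0.0192 with the first cluster. Leaving out 1 mouse gave Bhlha15 -2.10 to 0.53 (highest without i4F 3), Ptf1a -0.24 to 2.57 (lowest without caerulein 1), Rbpjl -0.11 to 2.58 (lowest without i4F 2) and a log2 ratio of Ptf1a to Rbpjl of -0.85 to 0.81.

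Shares in points turned for i4F over WT to 0.0297 (Ptf1a) and 2.66 (Gata4) without thinning and to -0.25 (Nr5a2) at 300 UMIs. For caerulein over WT they turned to 1.17 (Gata4) without thinning, to -0.67 (Ptf1a) and -0.25 (Nr5a2) at 300 UMIs, and leaving out 1 mouse gave Ptf1a -1.19 (without caerulein 1) to 2.29. Deviations of same-numbered WT and caerulein mice correlated at -0.205 and those of the crossed pairs at 0.205. Pairs with i4F mice lay between -0.0405 and 0.0405. With 2 mice a group the deviations mirror each other, so the crossed value is minus the same-numbered one by construction. These values cannot decide whether the numbers pair the mice. The crossed pairing called 2688 genes in acinar cells against 1524 as numbered.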
